A study of Mus musculus with 9 samples.

Results

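The genes described here make and display peptides on MHC class I: the light chain B2m, the heavy chains H2-K1, H2-D1 and H2-T23, the peptide transporter subunits Tap1 and Tap2, the loading factor Tapbp, and the inducible proteasome subunits Psmb8, Psmb9 and Psmb10. They were chosen by gene name, and all 10 were found among the 25494 genes with library values and in each of the 3 comparison tables. RNA abundance was measured by sequencing of total RNA depleted of ribosomal RNA in immortalized mouse bone marrow-derived macrophages from Zfp36 knockout mice, which lack tristetraprolin (TTP), a protein that binds AU-rich elements in mRNA 3'UTRs and promotes mRNA decay. The 9 libraries came from cells with a doxycycline-inducible retroviral transgene, 3 each for GFP alone (GFP/EV in the labels), for GFP-TTP (called TTP) and for GFP-TTP-AA (called TTP-AA), in which both serines phosphorylated by the kinase MK2 were changed to alanine. Cells of every group were given doxycycline at 1 µg/ml for 6 h and lipopolysaccharide (LPS) at 1 µg/ml for 1 h. The cells had been immortalized with human MYC and RAS oncogenes, sorted for CD11b and F4/80, and sorted for GFP after transduction; whether a group was more than 1 transduction was not stated in the sources used here. No library without doxycycline or LPS was analysed here, so differences between the lines before induction and effects of the transgene cannot be told apart.

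MHC class I molecules carry peptides from inside the cell to its surface, where CD8 T cells read them. Proteasomes cut cytosolic proteins into peptides, and cells exposed to interferon exchange the constitutive catalytic subunits for Psmb9, Psmb10 and Psmb8, which changes the peptides made. The Tap1 and Tap2 dimer pumps these peptides into the endoplasmic reticulum, tapasin (Tapbp) holds an empty class I molecule beside the pump, and the loaded heavy chain leaves with beta-2-microglobulin (B2m). In macrophages most of these genes respond to interferons and NF-kB.

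The table of library values held fitted means, that is, the counts expected by the authors' model for each library, and it carried no scatter between replicates. Within a replicate number the ratio of any pair of groups was therefore the same in replicates 1, 2 and 3, and overlap of libraries describes only that ratio beside the replicate-number term. The share of all genes whose groups do not overlap is not given here, so overlap is not read as a result about the members. Errors (±, standard errors) and tests below are those of the DESeq2 fit to all 9 libraries in the authors' deposited tables. Sums of fitted means ran from 21482954 (TTP replicate 1) to 102613526 (TTP-AA replicate 3), and neither library could be left out. For Zfp36 the log2 fold change was 0.04 ± 0.17 for TTP against GFP and 0.69 ± 0.17 for TTP-AA against GFP (DESeq2 adjusted p 0.930 and 6.8e-04), so its level gave no check of the TTP label. All 9 macrophage markers were found. Their summed level was lowest in TTP and highest in TTP-AA, but the GFP range overlapped both others. Of 8 listed for TTP against GFP, 2 were called lower and none higher, beside 5.08% and 4.08% of all genes. Of 9 listed for the other comparisons, 2 were higher for TTP-AA against GFP and 4 for TTP-AA against TTP. None was lower there, and 9.11% and 14.0% of all genes were called higher. The sum ran from 585811 to 803403 in GFP, from 490311 to 670126 in TTP and from 670500 to 916942 in TTP-AA, most of it from the lysozyme gene Lyz2. Emr1, which encodes F4/80, fell by 0.75 ± 0.14 on the log2 scale for TTP against GFP and was higher by 0.68 ± 0.14 for TTP-AA against GFP (DESeq2 adjusted p 1.3e-05 and 7.0e-05). The Fc receptor gene Fcgr1 changed by -1.20 ± 0.18 for TTP against GFP and by 0.82 ± 0.18 for TTP-AA against TTP (3.0e-09 and 8.6e-05). For TTP-AA against GFP the Fcgr1 estimate was -0.39 ± 0.18 (0.121), opposite in sign to that of Emr1. The part of these markers in the results below was not tested. Markers of other cells were low, with summed levels of at most 2.65 for B cells, 9.28 for fibroblasts, 108 for T cells, 356 for dendritic cells and 632 for neutrophils. Of these, Lck, a T cell kinase, was higher in TTP than in GFP by 0.66 ± 0.21, and in TTP-AA the dendritic cell factor Zbtb46 was lower than in GFP by a log2 change of -1.10 ± 0.23 and the neutrophil gene S100a8 higher by 0.76 ± 0.21 (DESeq2 adjusted p 0.0200, 5.2e-05 and 0.00415), all of them calls lost with scaled scores (defined below). The neutrophil receptor gene Cxcr2 had an estimate of -0.41 ± 0.20 in the same comparison (0.136) and a change of -0.57 ± 0.20 between TTP and TTP-AA (0.0177, and 0.843 with scaled scores). Of 4 neutrophil markers, Mpo and Elane were below 1 in every group mean, and fewer cells of a type and less RNA per cell cannot be told apart in such bulk libraries.

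Of the genes, 8 lie on chromosome 17 between 33915899 and 36032855 (GRCm38), with B2m on chromosome 2 and Psmb10 on chromosome 8. Psmb9, Tap1, Psmb8 and Tap2 form 1 cluster from 34181987 to 34216321, and all 10 are protein coding. Promoter sequences, 250 bases before to 50 bases after the start site, were available for 9 of them from RefSeq (GRCm38.p6), Tap2 being the one without. Stretches that matched 1 of the 3 motifs described here on either strand are shown 5' to 3' on the strand of the gene, with the match in capitals. None of the 3 motifs was found in Psmb8, Psmb9, Tap1, Tapbp or Psmb10. Some of the motifs were added after the sequences had been seen (below), so matches are not set against the changes in expression.

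B2m: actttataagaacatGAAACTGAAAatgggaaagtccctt

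H2-K1: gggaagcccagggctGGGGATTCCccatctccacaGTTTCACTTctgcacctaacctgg

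H2-D1: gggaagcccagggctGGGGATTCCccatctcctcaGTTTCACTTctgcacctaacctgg

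H2-T23: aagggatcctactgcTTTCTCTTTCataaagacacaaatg

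The stretches are chr2:122147533-122147572 (plus strand), chr17:34000415-34000473 (minus), chr17:35262908-35262966 (plus) and chr17:36032801-36032840 (minus), in the order printed. The core of the interferon-stimulated response element (ISRE), GAAA followed after 2 free bases by a second GAAA, was found in B2m and H2-T23 and in 3.49% of 27025 mouse promoters. The shorter ISRE-like motif GTTTCNNTT and the NF-kB motif GGGGATTCC were both found in H2-K1 and H2-D1, and in 5.82% and 0.259% of promoters; these motifs were added after the sequences had been seen. The H2-K1 and H2-D1 stretches of 59 bases differed at 1 position, A33T, with H2-K1 first and positions counted from the 5' end. Tap1 and Psmb9 start on opposite strands and their promoter windows share 275 bases, in which none of these 3 motifs was found. A match is a description of the sequence and was not tied to binding of any factor.

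Few AU-rich motifs were found in the 3'UTRs of these genes, which were short. The pentamer ATTTA occurred once in the 3'UTR of B2m and once in that of Tap1, and in none of the other 8 members, whereas 69.2% of 10823 protein-coding genes whose 3'UTR had 100 bases or more held it. The longer TATTTAT, the TTP recognition heptamer, was in 0 of the 10, against 28.9% of the same background. The 3'UTRs of the 10 had a median of 328 bases against 1038, and that of Psmb10 had 55, below the limit of 100 set for the background. A shorter 3'UTR has fewer places for a motif. The shares were not corrected for length, so they do not show that these 3'UTRs are poor in the motifs for their length. Both sites are printed with the pentamer in capitals, since they are the only candidates for the classical element in this group.

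B2m: atgctatacaATTTAtgcacgcagaa

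Tap1: gatacccggaATTTAccacgaatgtg

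The B2m site lies in exon 4 of 4 at chr2:122152699-122152724 and the Tap1 site in exon 11 of 11 at chr17:34196924-34196949, both on the plus strand of GRCm38. Binding of TTP to either site was not examined here. The authors' paper lists B2m among the top 3'UTR targets in its crosslinking and immunoprecipitation of GFP-TTP and GFP-TTP-AA.

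The levels of the 10 genes spanned a wide range. Given per kilobase of transcript, so that genes can be compared, the median over the 9 libraries was 30312 scaled reads for B2m, 9531 for H2-D1, 7115 for H2-K1, 2582 for Psmb8, 1477 for Psmb10, 1020 for Tapbp, 351 for H2-T23, 344 for Tap1, 285 for Psmb9 and 195 for Tap2. Within each library H2-D1 exceeded H2-K1 and Psmb10 exceeded Tapbp in 9 of 9, although their ranges over the libraries overlapped. H2-T23 exceeded Tap1 in 5 of 9, Tap1 exceeded Psmb9 in 8 of 9 and Psmb9 exceeded Tap2 in 7 of 9, so the order of these last 4 was not the same in every library. B2m lay above both classical heavy chains in every library. As these values are fitted means built from group and replicate-number terms, the 9 libraries are not 9 independent comparisons.

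The first comparison, of TTP with GFP, asks which of these mRNAs change when wild-type TTP is supplied. Of the 10, 6 were lower in TTP and none was higher (DESeq2 adjusted p under 0.05), where 5.08% of 11977 genes were called lower, 4.08% higher and 9.16% in either direction. All 4 genes of the class I molecule itself fell, along with Psmb8 and Psmb9, whereas Tap1, Tap2, Tapbp and Psmb10 did not pass the threshold. The median log2 fold change of the 10 was -0.53, beside 0.01 for all genes. All but Psmb10 had an estimate below 0.

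TTP-AA was compared with GFP to ask the same of the form that cannot be phosphorylated at these serines. Here 3 of 10 were called, H2-D1 higher and H2-T23 and Tap2 lower, against 17.9% of 13205 genes called in either direction, 9.11% higher and 8.77% lower. The median of the 10 was 0.14, beside 0.00 for all genes. H2-T23 was thus the member called lower with both forms of TTP, while H2-D1 was called in opposite directions.

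TTP-AA was compared with TTP directly, which tests whether the changes against GFP differed between the forms. Of the 10, 7 were higher in TTP-AA and none lower, where 14.0% of 13205 genes were called higher, 14.6% lower and 28.6% in either direction. The 7 were B2m, H2-K1, H2-D1, Tap1, Tapbp, Psmb8 and Psmb9, and the median of the 10 was 0.58, beside -0.01 for all genes. With Wald scores divided by their spread over all genes (1.51, 1.77 and 2.17 in the 3 comparisons), the members called were 5, 0 and 4, and the split of all calls moved from 489 higher and 608 lower to 78 and 171 for TTP against GFP, from 1203 and 1158 to 124 and 73 for TTP-AA against GFP, and from 1855 and 1925 to 193 and 71 for TTP-AA against TTP. In a combined Wald test of any difference among the 3 groups, 9 of 10 passed, Psmb10 being the exception, against 33.1% of 11977 genes.

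**Figure D1:**
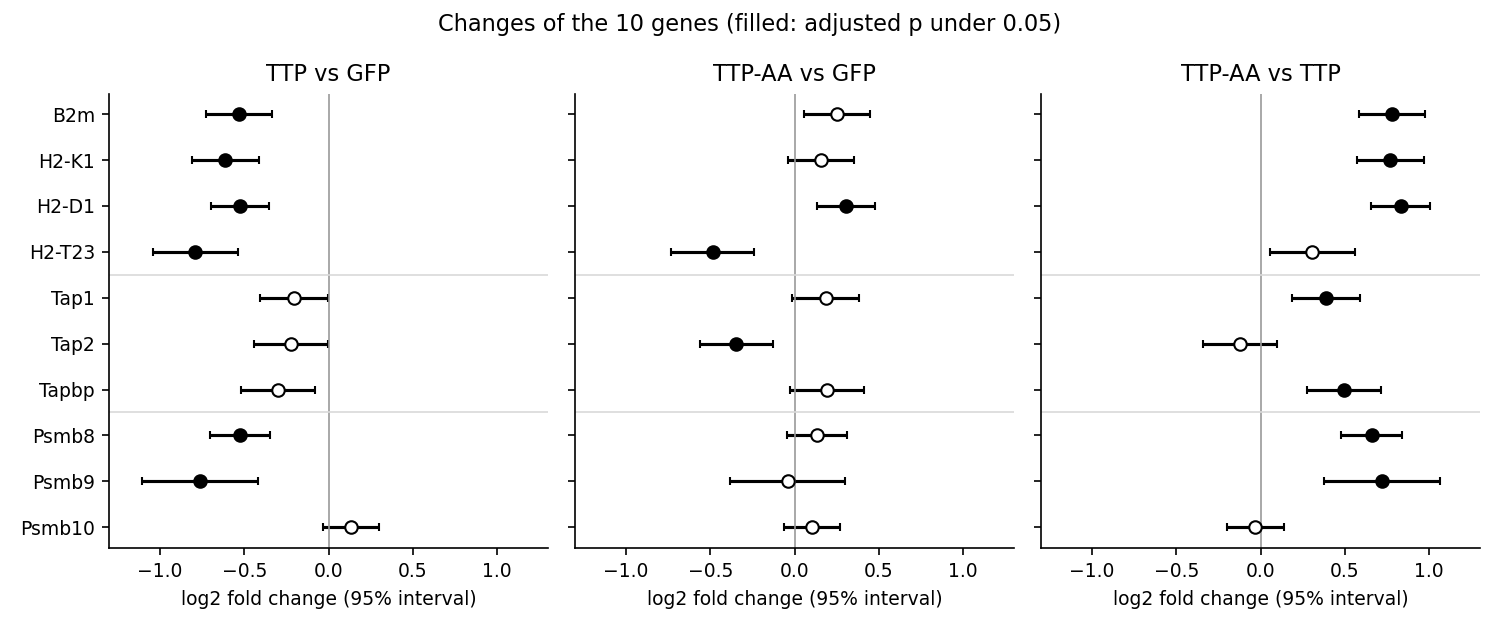
Log2 fold change of each of the 10 genes (rows, ordered by role) in the 3 comparisons (panels), with 95% intervals from the standard errors of the DESeq2 fit to 9 libraries; filled points have an adjusted p under 0.05. In TTP against GFP 6 points are filled and lie left of 0, in TTP-AA against TTP 7 are filled and lie right of 0, and Psmb10 stays near 0 in every panel.

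Of the class I molecule itself, B2m encodes the light chain that every classical heavy chain needs. Its scaled fitted means were 26069, 31275 and 25495 in GFP replicates 1 to 3, 18051, 21656 and 17654 in TTP, and 30984, 37172 and 30303 in TTP-AA. All TTP libraries lay below all GFP and TTP-AA libraries, and GFP and TTP-AA overlapped. B2m in TTP was 69.2% of GFP, with a log2 fold change of -0.53 ± 0.10 (adjusted p 6.8e-06 by DESeq2), and in TTP-AA 172% of TTP, a change of 0.78 ± 0.10 (adjusted p 4.1e-13). For TTP-AA against GFP the estimate was 0.25 with a 95% interval from 0.05 to 0.44 (DESeq2 adjusted p 0.0641), which passed the threshold only after the chromosome medians were subtracted (0.28, adjusted p 0.0344).

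H2-K1 and H2-D1 encode the classical heavy chains that present peptides to CD8 T cells. H2-K1 had scaled fitted means of 10335, 13231 and 12173 in GFP, 6760, 8654 and 7962 in TTP, and 11520, 14748 and 13568 in TTP-AA. It was lower in TTP than in GFP (-0.61 ± 0.10, DESeq2 adjusted p 1.0e-07) and higher in TTP-AA than in TTP (0.77 ± 0.10, adjusted p 1.4e-12), with an interval of -0.04 to 0.35 for TTP-AA against GFP. The TTP libraries again lay apart below the others. H2-D1 had 16422, 22283 and 20035 in GFP, 11400, 15468 and 13908 in TTP, and 20275, 27511 and 24735 in TTP-AA. Its changes were -0.53 ± 0.09 for TTP against GFP (DESeq2 adjusted p 1.9e-07), 0.30 ± 0.09 for TTP-AA against GFP (0.00601) and 0.83 ± 0.09 for TTP-AA against TTP (4.5e-19), the last being the largest change among the 10 in that comparison. H2-D1 lost its call against GFP with Benjamini-Yekutieli adjustment (adjusted p 0.0605) and with scaled scores (0.557).

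H2-T23 encodes Qa-1, a nonclassical heavy chain that presents leader peptides of other class I chains to receptors of natural killer cells. Its scaled fitted means were 628, 724 and 756 in GFP, 363, 418 and 437 in TTP, and 449, 517 and 540 in TTP-AA. TTP was lowest and GFP highest, and no pair of groups overlapped, which in fitted means sets the fold against the replicate-number term and is no test. The change was -0.79 ± 0.13 for TTP against GFP (DESeq2 adjusted p 5.6e-08) and -0.49 ± 0.13 for TTP-AA against GFP (0.00173), though the latter was lost with scaled scores (0.436). The direct difference of 0.31 ± 0.13 for TTP-AA against TTP just missed the threshold (DESeq2 adjusted p 0.0581, 95% interval 0.05 to 0.56) and passed it after subtraction of the median of all genes (0.0497) or of chromosome 17 (0.0410).

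**Figure D2:**
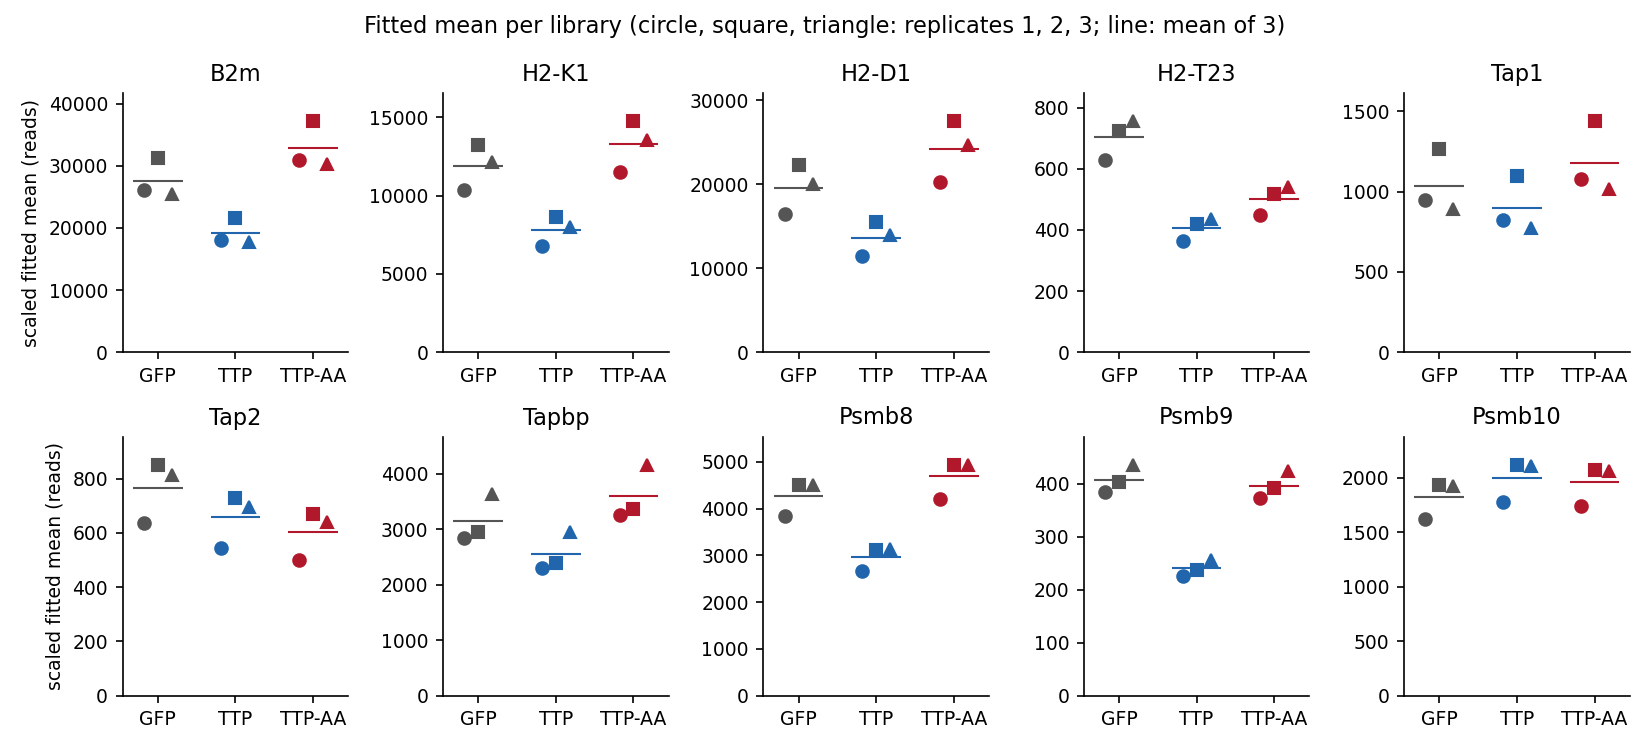
Scaled fitted mean (vertical axis, reads, starting at 0) of each of the 10 genes in the 9 libraries, by group; circles, squares and triangles are replicates 1, 2 and 3 and the line is their mean. Fitted means keep 1 ratio between groups in all 3 replicates, and the TTP libraries lie below all others for B2m, H2-K1, H2-D1, H2-T23, Psmb8 and Psmb9. The share of all genes separated in this way is not given here.

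None of the 3 transport and loading genes was called for TTP against GFP, where their estimates ran from -0.30 to -0.20. Tap1, a subunit of the peptide pump, had 950, 1265 and 892 scaled fitted reads in GFP, 824, 1098 and 775 in TTP, and 1079, 1438 and 1015 in TTP-AA. The groups overlapped, since the replicate-number term spread the libraries more than the conditions did. Between TTP and TTP-AA, Tap1 rose by 0.39 ± 0.10 (DESeq2 adjusted p 0.00110, lost with scaled scores at 0.645), and its estimate for TTP against GFP was -0.20 with an interval from -0.41 to -0.00 (adjusted p 0.225). Tap2, the other subunit, had 635, 852 and 814 in GFP, 544, 730 and 698 in TTP, and 500, 670 and 641 in TTP-AA. It was the member with its lowest mean in TTP-AA, at -0.35 ± 0.11 against GFP (DESeq2 adjusted p 0.0139, and 0.637 with scaled scores). For TTP-AA against TTP its interval ran from -0.34 to 0.09 and did not reach the Tap1 interval of 0.19 to 0.59. Tapbp had 2844, 2949 and 3643 in GFP, 2308, 2394 and 2957 in TTP, and 3252, 3373 and 4166 in TTP-AA. The libraries of TTP and TTP-AA did not overlap for Tapbp, and its change between them was 0.49 ± 0.11 (DESeq2 adjusted p 1.2e-04, and 0.509 with scaled scores). Against GFP, TTP gave -0.30 ± 0.11 (adjusted p 0.0680), which passed the threshold only with the GC and length trend removed (0.0458).

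The inducible proteasome subunits did not move together. Psmb8, the beta5i subunit with chymotrypsin-like activity, had 3834, 4498 and 4505 scaled fitted reads in GFP, 2662, 3124 and 3129 in TTP, and 4203, 4931 and 4939 in TTP-AA. It was lower in TTP than in GFP by a log2 change of -0.53 ± 0.09, and TTP-AA exceeded TTP by 0.66 ± 0.09 (DESeq2 adjusted p 6.8e-07 and 3.1e-11). Psmb9, the beta1i subunit, had 385, 403 and 436 in GFP, 227, 237 and 257 in TTP, and 374, 391 and 424 in TTP-AA. The TTP libraries of both genes lay below all others, while those of GFP and TTP-AA overlapped. Psmb9 changed by -0.76 ± 0.18 for TTP against GFP and by 0.72 ± 0.18 for TTP-AA against TTP (DESeq2 adjusted p 4.6e-04 and 3.9e-04), and both calls were lost with scaled scores (0.133 and 0.584). Psmb10, the beta2i subunit, had 1621, 1936 and 1927 in GFP, 1776, 2121 and 2111 in TTP, and 1739, 2077 and 2067 in TTP-AA. Its 3 groups overlapped, and its intervals were -0.04 to 0.30 for TTP against GFP, -0.07 to 0.27 for TTP-AA against GFP and -0.20 to 0.14 for TTP-AA against TTP, of which the first and the last leave out the estimates of Psmb8.

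The inducible subunits replace Psmb6 (beta1), Psmb7 (beta2) and Psmb5 (beta5), none of which was called in any comparison. Per kilobase, Psmb8 stood at 2628 in GFP, 1825 in TTP and 2882 in TTP-AA, beside 8147, 9009 and 8232 for Psmb5. The ratio of Psmb8 to Psmb5 was thus 0.288 to 0.361 over the GFP libraries, 0.181 to 0.227 over TTP and 0.313 to 0.392 over TTP-AA. For Psmb9 to Psmb6 it was 0.0118 to 0.0146 in GFP, 0.00680 to 0.00839 in TTP and 0.0119 to 0.0147 in TTP-AA. Psmb10 to Psmb7 ran only from 0.155 to 0.175 across all 9 libraries. These ratios of fitted means are a description of the RNA and had no test of their own.

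**Figure D3:**
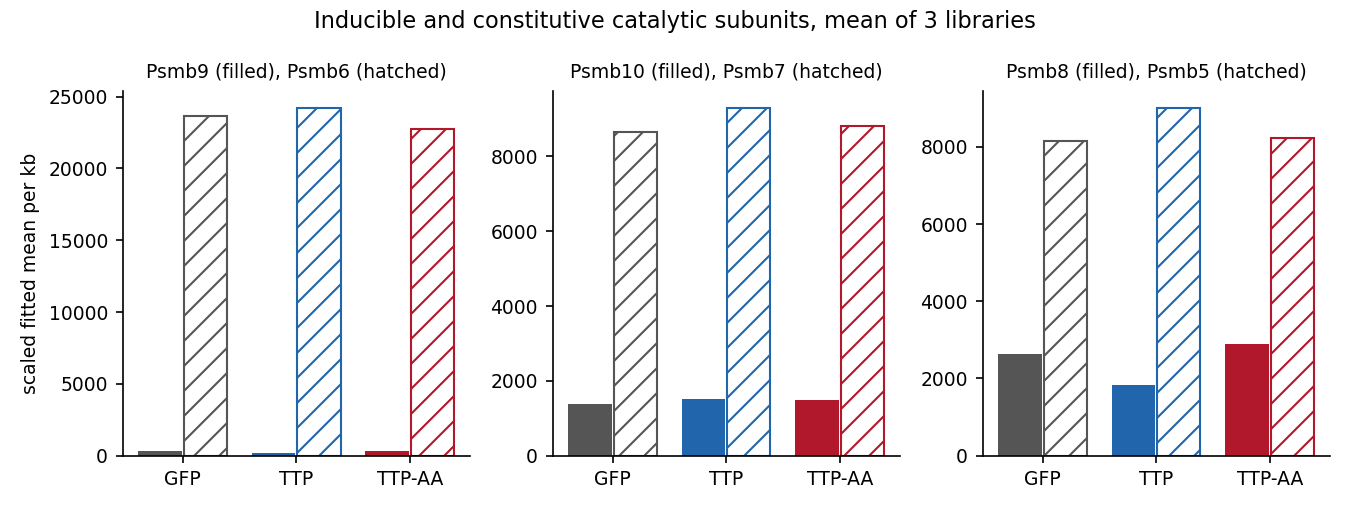
Scaled fitted mean per kilobase (vertical axis from 0, on a separate scale in each panel), averaged over 3 libraries, for each inducible catalytic subunit (filled bars) and its constitutive counterpart (hatched bars) in GFP, TTP and TTP-AA. The constitutive bar is the taller in every pair, and Psmb8 falls from 2628 in GFP to 1825 in TTP and stands at 2882 in TTP-AA.

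Shared sequence limits how far reads can be given to single members, because reads were 50 bases long and up to 2 placements were kept. Of 50-base windows in each transcript, 29.8% for H2-T23, 14.3% for H2-D1 and 8.79% for H2-K1 also occurred in transcripts of other genes, led by other class I genes and a class I pseudogene. For Tapbp 21.02% were shared, 19.0% with the antisense gene Gm19412, for Tap2 12.6% and for Psmb9 12.5%, the last with Tap1, whose exons overlap those of Psmb9 on the opposite strand. Tap1 shared 6.47% and Psmb8 5.83%. B2m and Psmb10 shared none. Exons of Tapbp also overlap Zbtb22 on the same strand and those of Tap2 and Psmb8 the antisense Gm20496. Whether strand was used in the counting was not stated.

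The rest of the pathway was taken from lists of known components, chosen with earlier results of these data known. Their counts stand beside the shares of all genes called. For TTP against GFP these were 4.08% higher and 5.08% lower. For TTP-AA against GFP they were 9.11% and 8.77%, and for TTP-AA against TTP 14.0% and 14.6%. Of 11 listed other class I and class Ib genes, 3 were lower and none higher for TTP against GFP (median -0.15), and of 16 listed for TTP-AA against TTP 7 were higher and 2 lower (median 0.38). For TTP-AA against GFP 1 was higher and 1 lower of 16. H2-T10 changed most, by -1.51 ± 0.18 for TTP against GFP, 0.61 ± 0.17 for TTP-AA against GFP and 2.12 ± 0.18 for TTP-AA against TTP (DESeq2 adjusted p 1.5e-14, 0.00353 and 5.2e-30), followed by H2-T24 at -1.13 ± 0.20 and 1.43 ± 0.20 for TTP against GFP and TTP-AA against TTP (6.5e-07 and 1.5e-11). With scaled scores H2-T10 lost its call against GFP for TTP-AA (0.506), and the other 4 calls of this pair held. Both belong to the same multigene family, so their counts are uncertain.

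None of 9 proteasome activators and assembly factors was called in any of the 3 comparisons. Of 14 constitutive 20S core subunits 1 was called lower for TTP against GFP, 2 higher for TTP-AA against GFP and 2 higher for TTP-AA against TTP. Of all genes, 5.08%, 9.11% and 14.0% were called in the same directions. Psmb2 rose by 0.27 ± 0.09 against GFP and by 0.26 ± 0.09 against TTP (DESeq2 adjusted p 0.0141 and 0.0143), and Psma6 rose by 0.34 ± 0.11 against GFP (0.0134), and all 3 calls were lost with scaled scores (0.638, 0.831 and 0.637). Of 7 cytosolic peptidases, which trim proteasome products, only Lap3 was called, lower in TTP-AA than in TTP (-0.41 ± 0.08, DESeq2 adjusted p 2.1e-05, and 0.422 with scaled scores).

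Of 7 genes for loading chaperones and the peptidase of the endoplasmic reticulum, none was called for TTP against GFP. For TTP-AA against GFP 1 was lower and for TTP-AA against TTP 3 were lower, beside 8.77% and 14.6% of all genes. Hspa5, the chaperone BiP, fell by 0.51 ± 0.09 and Hsp90b1, the chaperone GRP94, by 0.35 ± 0.10 on the log2 scale between TTP and TTP-AA (DESeq2 adjusted p 7.8e-08 and 0.00373), and neither call held with scaled scores (0.184 and 0.730). Both serve folding in general rather than class I alone.

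Among 16 transcription regulators of class I genes, 4 were lower and none higher for TTP against GFP, and 3 were higher and none lower for TTP-AA against TTP; for TTP-AA against GFP 1 was called in each direction. These 3 of 16 stand beside 14.0% of all genes called higher for TTP-AA against TTP, and the 4 of 16 beside 5.08% called lower for TTP against GFP. The 1 of 16 in each direction for TTP-AA against GFP stands beside 9.11% higher and 8.77% lower. Irf9, the DNA-binding part of the interferon-activated complex ISGF3, changed by -0.91 ± 0.16 for TTP against GFP and by 0.98 ± 0.16 for TTP-AA against TTP (DESeq2 adjusted p 6.2e-07 and 1.5e-08). Nlrc5, the transactivator of class I genes, changed by -0.49 ± 0.12 and 0.75 ± 0.12 in the same comparisons (0.00193 and 2.3e-08). With scaled scores the fall of Irf9 in TTP kept its call (adjusted p 0.00956), whereas its change between the forms (0.142) and both of Nlrc5 (0.227 and 0.149) did not. Of 23 interferon-stimulated genes 15 were lower for TTP against GFP (median -0.91), and of 24 listed for the other comparisons 5 were higher for TTP-AA against GFP (median 0.25) and 17 higher for TTP-AA against TTP (median 1.14), with none called the other way. Their largest changes between the forms were those of the RNA sensor Ifih1, at 3.70 ± 0.18, and of Oasl1, at 3.04 ± 0.19 (DESeq2 adjusted p 8.5e-93 and 3.1e-52). These comparisons share libraries, and the part of interferon signalling in the members' changes was not tested.

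MHC class II genes present peptides from outside the cell, and not all of the 11 were listed. Of 5 listed for TTP against GFP 1 was lower, and of 6 listed for TTP-AA against TTP 3 were higher (median 0.46), while 1 was called in each direction for TTP-AA against GFP. In TTP-AA, Cd74, the invariant chain, exceeded its TTP level by 0.69 ± 0.15 and the peptide exchange factor gene H2-DMa by 0.76 ± 0.23 (DESeq2 adjusted p 6.5e-05 and 0.00604, and 0.473 and 0.767 with scaled scores). The mean count of H2-DMa was low, at 34.8 against 1689 for Cd74.

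**Figure D4:**
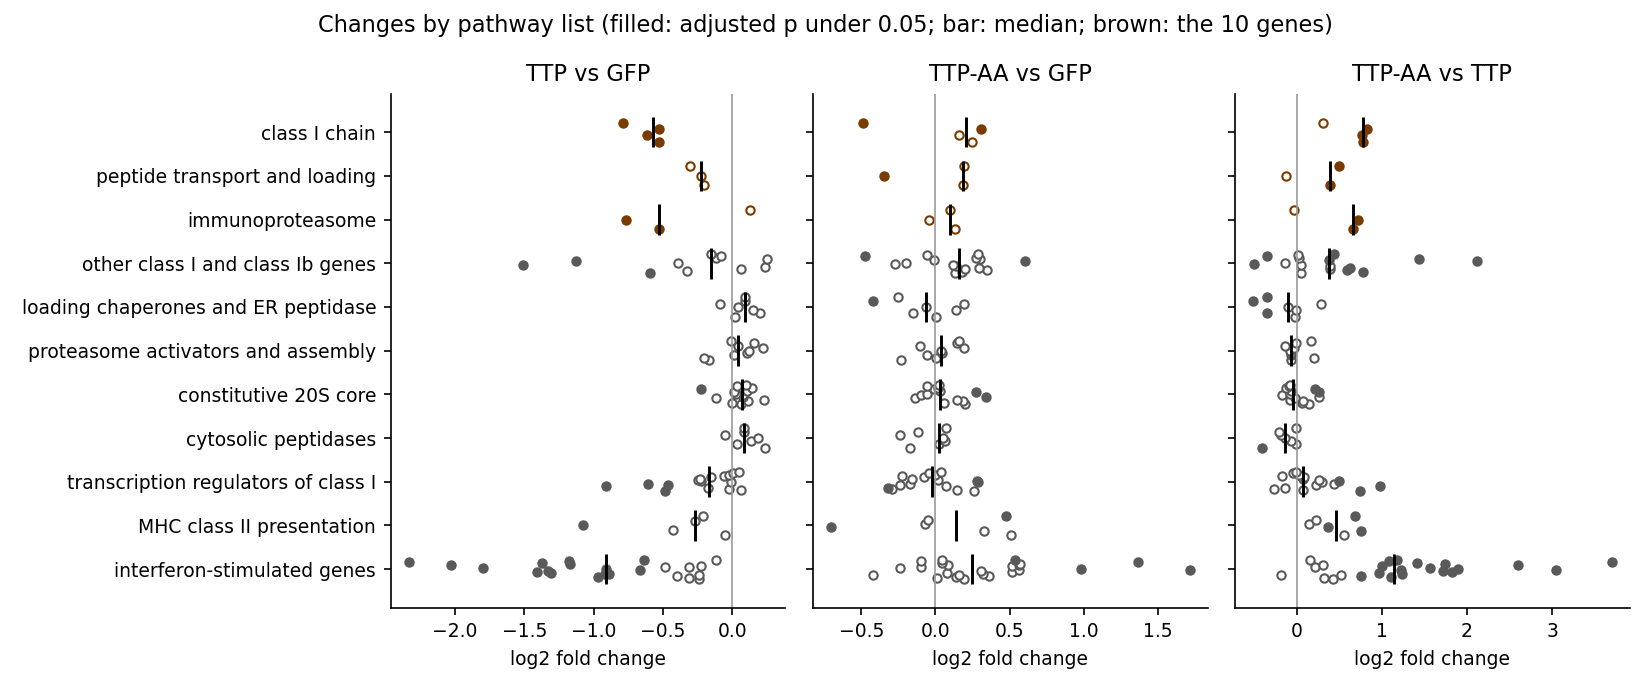
Log2 fold change (horizontal axis, scaled separately by panel) of every listed gene of each pathway list (rows) in the 3 comparisons (panels); filled points have an adjusted p under 0.05, bars are list medians and the 10 genes are brown. The class I chain row has its median at -0.57 for TTP against GFP and 0.77 for TTP-AA against TTP, between the constitutive 20S core (0.07 and -0.05) and the interferon-stimulated genes (-0.91 and 1.14).

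The position on chromosome 17 was examined because 8 of the members share it. Of 80 other listed genes in this span of 2.12 Mb, 7 (8.75%) were called for TTP against GFP, 12 (15.0%) for TTP-AA against GFP and 25 (31.2%) for TTP-AA against TTP, shares near those of all genes. Their medians were 0.02, -0.05 and -0.04. The neighbours with the largest changes for TTP against GFP were presentation genes as well, H2-T24 (above) and the class II peptide exchange factor gene H2-DMb1, which changed by -1.07 ± 0.13 for TTP against GFP and by -0.70 ± 0.12 for TTP-AA against GFP (DESeq2 adjusted p 6.2e-15 and 8.0e-07, the latter 0.0755 with scaled scores). Within the cluster, Psmb9 and Psmb8 were called for TTP against GFP. Tap1, whose promoter window overlaps that of Psmb9, and Tap2 were not called. Whether the changes of these neighbours differ was not tested.

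**Figure D5:**
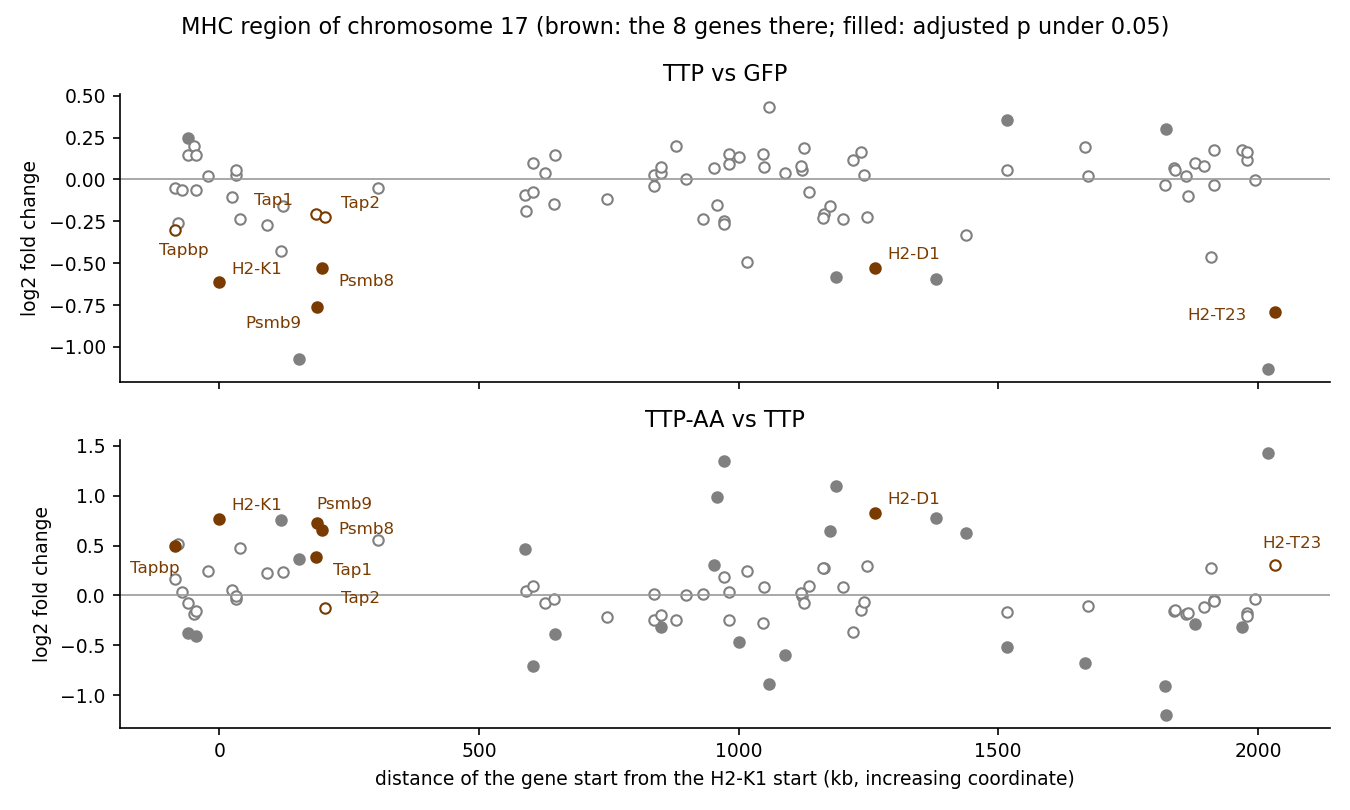
Log2 fold change (vertical axis) of the listed genes between the first and last member on chromosome 17, against the distance of the gene start from that of H2-K1 (kb), for TTP against GFP (top) and TTP-AA against TTP (bottom); filled points have an adjusted p under 0.05 and the 8 members are brown. Grey neighbours scatter around 0, with medians of 0.02 and -0.04, while 5 of the 8 members are filled below 0 in the top panel.

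Among 11133 other genes with a mean count of at least 50, those with a pair of changes against GFP closest to the members' median pair (-0.53 for TTP and 0.14 for TTP-AA, over the 3 conditions) were Zbtb20, Clec4a2, B430305J03Rik, Btg1 and Lair1, at distances from 0.0218 to 0.0531 on the log2 scale. The nearest, the transcription factor gene Zbtb20, had -0.53 and 0.12, and Btg1, an antiproliferative factor gene, had -0.50 and 0.19.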

How the data were processed

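Total RNA libraries depleted of ribosomal RNA (50-base single reads) were analysed from 9 samples, grouped by their titles. Per the labels and methods, the authors trimmed reads with Trim Galore, aligned them to GRCm38 with TopHat2 (2.0.12 in the submitters' processing notes), keeping up to 2 placements, counted them per Ensembl gene with HTSeq and fitted DESeq2 1.6.3 with library date and condition, Wald tests and the Cook's filter off. The deposited library table is named as normalized counts, but it has no value at 0 and 4 nonzero singular values, and its same-numbered ratios equal the log2 fold changes plus a constant within 1.4e-14, so it holds a signal of fitted means. From the authors' deposited comparison tables came the mean signal, the log2 fold change, its standard error, the Wald score and the p-value with its adjusted value, which are the tests used; whether changes were shrunk was not stated. Repeated identifiers (3 per table) were counted once, which left 11977 genes for TTP against GFP and 13205 for each other comparison, with a median standard error from 0.12 to 0.13.

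Computed here in Python 3.11.15 (scipy 1.17.1, pandas 2.3.3, numpy 2.4.6) were levels scaled by the model's library constants and the median over genes, a combined Wald test with 2 degrees of freedom (tested on simulated data), 95% normal intervals, and 7 alternative settings. The threshold was a two-sided adjusted p of 0.05. Lengths, exons and 3'UTRs came from GENCODE M21 (GRCm38, later than the authors' annotation), using the transcript with the longest coding sequence. The members and lists were chosen with earlier results of these data known. Named beside the members were, per list, the called genes with the 2 largest changes for TTP-AA against TTP, the 5 nearest patterns and the 2 neighbours with the largest change; Emr1, Fcgr1, Lck, Zbtb46, S100a8 and Cxcr2 were among those named by this rule, and Lyz2, Mpo and Elane were named after their values were seen. Samples are biological replicates in the series' design, and what separates them was not stated further. One further promoter motif, which matched 1 member, is not reported here.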

Additional observations from a re-analysis of the deposited data

Results flagged for a closer look

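For 7 of the 10 genes the change against GFP differed between the TTP forms by the test of TTP-AA against TTP itself, in the authors' deposited table adjusted over all genes by DESeq2. The same test called 14.0% of 13205 genes higher and 28.6% in either direction. The differences on the log2 scale were 0.78 for B2m, 0.77 for H2-K1, 0.83 for H2-D1, 0.39 for Tap1, 0.49 for Tapbp, 0.66 for Psmb8 and 0.72 for Psmb9, all higher in TTP-AA. B2m, H2-K1, H2-D1 and Psmb8 also passed with scaled Wald scores, and Tap1, Tapbp and Psmb9 did not.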

How the results depend on the processing

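No paired analysis was possible because each library's value is the model's expectation, without residuals, and because the replicate numbers already enter the authors' DESeq2 fit through its library date term. The fit without that term, leaving out each replicate and limma with other pseudocounts were therefore not run. Of the 7 settings tried, only the subtraction of medians (all genes or chromosome) and the removal of the GC and length trend could move an estimate. No member's estimate changed sign under these in any comparison, and the other settings changed only which genes were called. With Wald scores divided by their central spread, the members called went from 3 to 0 for TTP-AA against GFP and from 7 to 4 for TTP-AA against TTP. Pathway genes went from 9 to 4, from 9 to 0 and from 21 to 2 in the 3 comparisons. They exclude members, markers and interferon-stimulated genes, and list sizes are given above. Neighbours on chromosome 17 went from 7 to 2, from 12 to 2 and from 25 to 3. Calls over all genes went from 1097 to 249, from 2361 to 197 and from 3780 to 264. Before this setting the calls were 9.16%, 17.9% and 28.6% of all genes. That setting left 461 of 3965 genes and 4 of 9 members in the combined test, and the spread it divides by includes real changes. With Benjamini-Yekutieli adjustment the members called for TTP-AA against GFP were 1, pathway genes 5, 3 and 12, neighbours for TTP against GFP 2 and genes in the combined test 2341. Calls over all genes were then 529, 1138 and 2174 in the 3 comparisons. Subtracting chromosome medians and removing the GC and length trend each left 4 neighbours for TTP against GFP; the cause was not tested. For the members, 6 calls for TTP against GFP were 5 with scaled scores. The lowest mean count among the members, 349 for Psmb9, went with their largest standard error, 0.18.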
